A study of Mus musculus with 2 samples.

Results

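Cells in G2 and mitosis were taken from single-cell transcriptomes of the mouse jejunum. Members were chosen by detection of at least 4 of 8 transcripts: Mki67, Top2a, Cdk1, Ccnb1, Ccnb2, Cenpf, Ube2c and Birc5. A member also had Lyz1 and the Defa-prefixed defensin genes together under 10% of its UMIs (unique molecular identifiers, which count captured transcripts), a limit that removes Paneth cells. In all, 6702 of 22282 kept cells met the rule, 3167 of 11263 in the Fc control library and 3535 of 11019 in the FZD5/8 antagonist library. To be kept, a cell needed 500 or more genes, with mitochondrial transcripts no more than 20% of its UMIs. Both groups carried the Lgr5-eGFP-IRES-CreER allele, which marks crypt base stem cells with GFP, and the cells had been sorted for GFP, so each group holds only cells that passed that gate. The labels give female animals aged 10 to 12 weeks, 3 in each condition, given either an Fc control or an FZD5/8 antagonist, a protein that blocks these Frizzled receptors of Wnt. Each condition is 1 droplet library in which cells cannot be assigned to mice. For dose and duration, the sources used here give nothing. The comparison asks how dividing crypt cells differ when these receptors are blocked, and with 1 library per group it compares these libraries, not the conditions. No test was possible, and the 95% intervals given cover counting error only.

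A cell that has copied its DNA passes through G2 and divides in mitosis. Entry is driven by the kinase CDK1 bound to B-type cyclins, chromosomes are condensed and attached to the spindle through kinetochores, and the anaphase-promoting complex, a ubiquitin ligase, then marks securin and cyclin B for destruction so that sister chromatids part. In the intestine these divisions take place in the crypt, where Lgr5-expressing stem cells at the base depend on Wnt signals and their daughters divide further before they differentiate.

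Several features of the libraries bear on every value below. The members held 28155796 UMIs in the control library against 33393125 in the antagonist library, with medians of 7604 and 4986 UMIs per cell. A small number of deep cells carried much of the antagonist sum. Members over 30000 UMIs numbered 31 in the control library, with 4.44% of the members' UMIs, and 244 in the antagonist library, with 41.4%. Of these 244 cells 217 had all 8 markers, 231 had at least 3 goblet, 3 tuft and 3 enterocyte markers at once, and 79 had a barcode that the other library also holds. Cells were also thinned to 3000 UMIs, with shallower ones left out. Then 3 tuft markers were found in 2.05% of the 244 cells and 3.19% of antagonist members up to 30000 UMIs. For 3 goblet markers these shares were 99.2% and 35.5%, and for 3 Paneth markers 100% and 44.0%. Before thinning, 3 enterocyte markers were found in 99.5% of antagonist members up to 30000 UMIs. The libraries shared 145 barcodes, which belonged to 13 control and 94 antagonist members, 6 of them members in both. Kept cells with a shared barcode were shallow in the control library (median 795 UMIs) and deep in the antagonist library (61493). No doublets were removed, so many results are given with and without members over 30000 UMIs. The levels of the 8 markers, among others, are given for all members only. The sex-linked transcripts went against the labels, since both groups are labelled female. Xist was at 0.994 CPM (summed UMIs of a gene per 1e6 summed UMIs of the members) in control members and 538 CPM in antagonist members. The Y-linked Ddx3y was at 29.0 and 1.38 CPM, Eif2s3y at 37.3 and 1.65 CPM, Uty at 21.7 and 1.20 CPM and Kdm5d at 13.3 and 1.08 CPM. Sex and condition cannot be told apart in any comparison between the libraries.

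Short sequences that cell cycle genes are known for were looked for in the promoters of the 8 markers. Genes of G2 and mitosis are known to be repressed outside these phases through a cell cycle homology region, here searched as TTTGAA or TTTAAA on both strands, and to be activated by NF-Y at CCAAT boxes. Stretches of 4 markers are printed 5′ to 3′ on the gene's strand, to show how closely the elements lie together, with both motifs in capitals (on the other strand they read TTCAAA and ATTGG).
Cdk1: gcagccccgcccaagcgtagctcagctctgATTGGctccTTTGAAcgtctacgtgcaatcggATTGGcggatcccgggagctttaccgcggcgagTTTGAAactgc
Ube2c: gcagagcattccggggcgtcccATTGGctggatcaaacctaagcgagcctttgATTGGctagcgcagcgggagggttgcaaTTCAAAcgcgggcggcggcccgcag
Top2a: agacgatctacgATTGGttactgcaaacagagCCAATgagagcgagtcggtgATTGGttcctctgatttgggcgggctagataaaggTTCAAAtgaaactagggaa
Mki67: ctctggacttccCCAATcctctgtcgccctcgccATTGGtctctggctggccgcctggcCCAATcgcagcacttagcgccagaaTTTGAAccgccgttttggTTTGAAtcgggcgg
The first 3 run from 110 to 5 bases before the RefSeq transcription start and the stretch of Mki67 from 200 to 85 bases before it. On GRCm38.p6 they lie at chr10:69352917-69353022 on the minus strand (Cdk1), chr2:164769819-164769924 on the plus strand (Ube2c), chr11:99024194-99024299 on the minus strand (Top2a) and chr7:135716464-135716579 on the minus strand (Mki67). The Cdk1 gene coordinates given below are from GENCODE and start further upstream than RefSeq. By these, the last bases printed for Cdk1, with the last TTTGAA, lie inside the gene. In the stretch of Cdk1 there were 2 matches to each motif, in that of Ube2c 1 cell cycle homology match and 2 CCAAT matches, in that of Top2a 1 and 3, and in that of Mki67 2 and 3, with 0 overlapping matches in each.

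Over the RefSeq windows from 250 bases before to 50 bases after the start, TTTGAA or TTTAAA was found in 8 of 8 markers and in 27.8% of 27025 promoters. At least 2 CCAAT matches were found in 7 of 8 markers and in 12.2% of all promoters, and both features in 7 of 8 and in 3.25%. Birc5 had the homology match, and 0 CCAAT matches. Among 113 other G2 and mitosis genes, of which 90 had a promoter in the table, 56.7% had the homology match and 44.4% had 2 or more CCAAT matches. Of 50 S phase genes, 39 were matched, and 23.1% of these had the homology match while 41.0% had 2 or more CCAAT matches. Of 35 genes of the Lgr5 stem cell signature 27 were matched, with 25.9% and 7.41%. The homology match was thus about as frequent in S phase and stem cell genes as in all promoters, and more frequent in genes of G2 and mitosis. A match describes these letters and is not a measured binding site.

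G2 and mitosis cells made up a larger share of the antagonist library. They were 28.1% of kept control cells (27.3 to 29.0) and 32.1% of kept antagonist cells (31.2 to 33.0), a difference of 3.96 percentage points (2.75 to 5.17). Detection of markers depends on depth, and kept antagonist cells were shallower, with a median of 2732 UMIs against 4478. With each cell thinned to 3000 UMIs and shallower cells left out, which retained 66.9% of control and 45.7% of antagonist cells, the shares were 1763 of 7536 cells (23.4%, 22.4 to 24.4) and 1905 of 5036 cells (37.8%, 36.5 to 39.2). The difference was then 14.4 percentage points (12.8 to 16.1), and 13.2 percentage points when cells over 30000 UMIs were also left out. Leaving out shallower cells retained 89.0% of control and 77.8% of antagonist members, more than of all kept cells. At full depth 2820 of the 7536 retained control cells and 2751 of the 5036 retained antagonist cells were members. The choice of cells thus changed the shares before any thinning, and the wider difference is not a correction for depth alone. Paneth-gated cells, which leave the cell cycle as they mature, gave a background that also differed. Before thinning 30 of 235 such control cells (12.8%) and 129 of 483 such antagonist cells (26.7%) had 4 or more markers, at medians of 4685 and 2977 UMIs, and in thinned cells the shares were 8.80% and 21.7%. Enterocyte-gated cells (Apoa1, Apoa4, Apoc3 and Fabp1 at 2% or more of UMIs), at medians of 6464.5 and 4052.5 UMIs, gave 4.76% and 2.48%, and after thinning 1 of 149 and 0 of 148 cells.

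**Figure D1:**
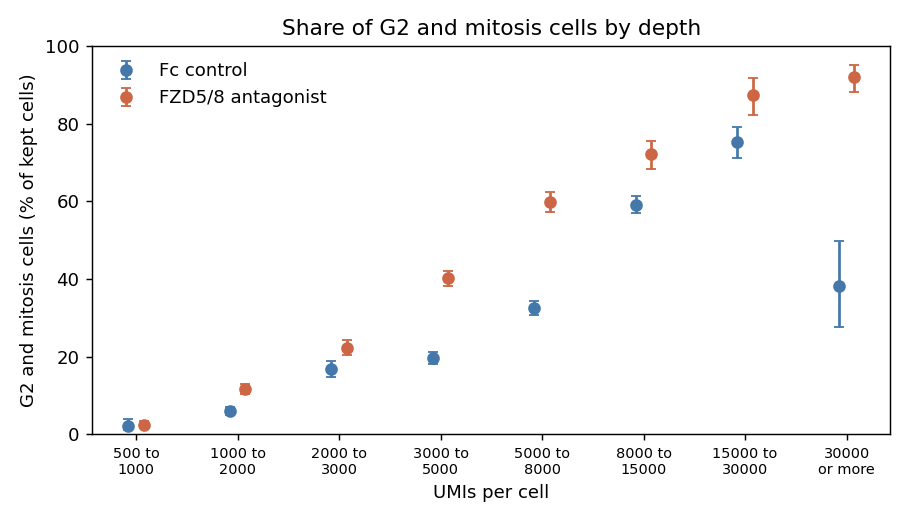
Share of G2 and mitosis cells among kept cells (%) in bins of UMIs per cell, with exact 95% binomial intervals, for the Fc control (blue) and FZD5/8 antagonist (red) libraries. From 3000 to 5000 UMIs the shares were 19.5% and 40.1%, and from 500 to 1000 UMIs, where few markers can be detected, 2.21% and 2.42%.

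Within each bin from 1000 UMIs up the antagonist share was higher. The plot of shares by depth shows 16.7% and 22.2% from 2000 to 3000 UMIs, 19.5% (18.0 to 21.1) and 40.1% (38.2 to 42.1) from 3000 to 5000 UMIs, and 32.5% (30.6 to 34.3) and 59.9% (57.4 to 62.5) from 5000 to 8000 UMIs. From 8000 to 15000 UMIs the shares were 59.2% and 72.1%. In the shallowest bin the intervals overlapped. At 30000 UMIs or more 31 of 81 control cells (38.3%) and 244 of 265 antagonist cells (92.1%) were members. The sort for GFP, the depth gap and the Paneth gate can each set these shares, and their part in the difference was not tested.

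The 8 markers chose the cells, so their levels describe the rule. Members had a median of 6 markers in both libraries. Just inside the threshold, 805 control and 945 antagonist members had exactly 4 markers, with medians of 5321 and 3184 UMIs, and just outside it 1092 and 1304 cells had 3 markers, with medians of 4662 and 2506 UMIs. All 8 markers were found in 503 control members, at a median of 10993 UMIs, and in 499 antagonist members, at 22479 UMIs. Kinetochore and checkpoint genes gave a median of 0.314% of UMIs in control members with all 8 markers and 0.141% in those with exactly 4. In the antagonist library these medians were 0.172% and 0.185%. For spindle and cytokinesis genes they were 0.670% and 0.211% in control members, and 0.354% and 0.349% in antagonist members. More markers thus did not go with a clearly larger share of these genes in antagonist members, and the part of depth was not tested. Genes of G2 and mitosis other than the markers gave a median of 1.40% of UMIs in control members with 4 markers and 1.10% in control cells with 3. The same shares were 1.87% and 1.62% in the antagonist library, so cells on either side of the threshold differed by degree. Over all members that median was 2.04% in each library, with quartiles of 1.45% and 2.64% in the control library and 1.58% and 2.61% in the antagonist library.

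Top2a, which untangles copied DNA (chromosome 11, 98992943 to 99024189), was at 599 CPM (590.2 to 608) in control members and 521 CPM (514 to 529) in antagonist members. Ube2c, the ubiquitin-conjugating partner of the anaphase-promoting complex, was at 542 and 535 CPM, and Mki67, which coats mitotic chromosomes, at 363 and 332 CPM. Cenpf, a kinetochore protein, was at 330.5 and 242 CPM, and Ccnb2, a B-type cyclin, at 191 and 141 CPM. Birc5, a subunit of the chromosomal passenger complex, was at 243 and 275 CPM, and Cdk1 (chromosome 10, 69335146 to 69352938) at 207 and 215 CPM. Ccnb1 (chromosome 13, 100778650 to 100786570), the partner cyclin that carries Cdk1 into mitosis, was at 52.6 (49.9 to 55.3) and 51.3 CPM (48.9 to 53.8). Ccnb1 was thus the rarest marker and was detected in 31.5% of control and 30.8% of antagonist members, against 87.4% and 91.4% for Top2a. Levels of different genes are by counts of 3′ ends and are not scaled for length.

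**Figure D2:**
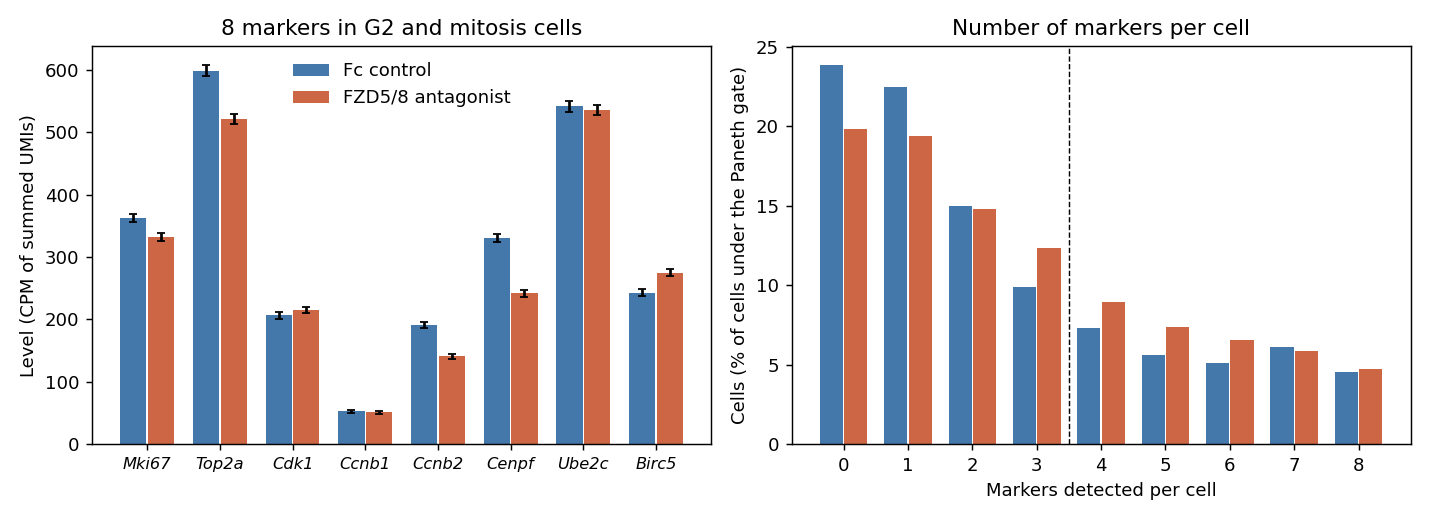
Left, level of the 8 markers (CPM of the members' summed UMIs, bars with exact 95% Poisson intervals). Right, cells under the Paneth gate by the number of markers detected (%), with members to the right of the dashed line. Blue is Fc control and red is FZD5/8 antagonist, and the distribution has no gap at the threshold between 3 and 4 markers.

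The members had the transcripts of gut epithelium. Epcam, an adhesion protein of epithelial cells, was found in 3158 of 3167 control and 3523 of 3535 antagonist members. Of 19 immune markers 7 were at 0 in control members, among them Cd3g, Cd3d, Ms4a1, Nkg7, Gzma and Gzmb, and 3 in antagonist members, among them Ms4a1 and Csf1r. Summed, the 19 stood at 37.4 and 16.4 CPM. Of 12 stromal and endothelial markers 7 were at 0 in both libraries, namely Col1a1, Col1a2, Col3a1, Pdgfra, Acta2, Cdh5 and Kdr, and the sums were 3.76 and 3.47 CPM. At least 3 markers of a lineage were found together in many members before thinning. After thinning to 3000 UMIs 3 goblet markers were found together in 16.6% (15.3 to 18.1) of control members and 41.1% (39.3 to 43.0) of antagonist members, 3 Paneth markers in 74.1% and 48.9%, and 3 tuft markers in 45 of 2820 and 85 of 2751 members. The label of dividing epithelial cells therefore stood, while secretory transcripts were present beside those of division.

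Genes of G2 and mitosis were at much the same level in the members of both libraries. Members were chosen by transcripts of the same phases, so this similarity is in part set by the rule. Over all 12683 genes with at least 20 UMIs, 6.73% were higher in the antagonist library by 1.5-fold or more, 16.4% were lower by 1.5-fold or more, and 32% were higher at all, with a median log2 ratio (antagonist over control) of -0.17. With the libraries scaled by the median gene ratio, 1235 genes were higher and 1420 lower by 1.5-fold or more, against 853 and 2084 as scaled to totals. Ratios below are therefore read against -0.17. Of the 113 genes of G2 and mitosis outside the rule, 14 were higher, 99 were lower, 0 were higher by 1.5-fold or more, 7 were lower by that factor, and the median was -0.23. In members up to 30000 UMIs 32 were higher and 81 lower, with a median of -0.11, beside -0.18 over 12370 genes, of which 6.54% were higher and 18.2% lower by 1.5-fold or more. The median moved from -0.45 to 0.12 over the alternatives tried, so its sign was not fixed.

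Among kinases, cyclins and their regulators, of which 23 were measured, Cks2, a small subunit of the Cdk1 complex, was at 236 CPM in control members and 249 CPM in antagonist members, a ratio of 1.06 (1.02 to 1.09). Stmn1, which destabilises microtubules, was at 788 and 494 CPM, 1.59-fold lower (1.56 to 1.63). Wee1, the kinase that holds Cdk1 inactive, was at 49.5 and 34.5 CPM, 1.44-fold lower (1.33 to 1.56), and 1.66-fold lower in members up to 30000 UMIs. The list's median was -0.16. Among 28 kinetochore and checkpoint genes 0 were higher, with a median of -0.28, and the range ran from Cenpn (8.56 and 5.30 CPM) to Cenpw (180.5 and 180.0 CPM), both parts of the centromere's inner kinetochore. In members up to 30000 UMIs Cenpw was at 182 and 223 CPM, and 4 of the 28 were higher.

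Among 33 genes of the spindle and of cytokinesis, the median was -0.24. The largest difference was in Psrc1, a microtubule-binding protein, at 17.5 CPM in control members and 6.11 CPM in antagonist members, a log2 ratio of -1.52. Cit, a kinase of the cleavage furrow, was at 49.5 and 29.4 CPM, 1.68-fold lower (1.55 to 1.83), and Kif2c, a kinesin that shortens microtubules, at 28.2 and 18.0 CPM. The tubulins differed in opposite directions, with Tubb5 at 643 and 391 CPM (1.64-fold lower, 1.61 to 1.68) and Tubb4b at 251 and 329 CPM (1.31-fold higher, 1.27 to 1.35). Kpna2, a nuclear import factor, was at 33.1 and 40.1 CPM. Of the 7 genes that were lower by 1.5-fold or more, 4 were in this list (Psrc1, Cit, Tubb5 and Kif2c), and the others were Stmn1, Cenpp and Cenpn, named here after their values were seen.

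The 18 genes of chromosome condensation and chromatin had a median of -0.12, with none past 1.5-fold. The histone variants H2afz (2496 and 2637 CPM) and H2afv (1682 and 1842 CPM) were the most abundant, with ratios of 1.06 (1.05 to 1.07) and 1.10 (1.08 to 1.11), and 1.28 and 1.37 in members up to 30000 UMIs. Ncapd2, a condensin subunit, was at 60.3 and 43.6 CPM, 1.38-fold lower (1.29 to 1.48). The 19 genes of the anaphase-promoting complex, securin and the passenger complex had a median of -0.22. Its subunits Cdc23 (20.3 and 14.2 CPM) and Cdc27 (29.4 and 21.7 CPM) were 1.43-fold and 1.35-fold lower, while Cdc20, which activates the complex in mitosis, stood at 82.7 and 83.2 CPM. Pttg1, which is securin, was at 273 and 344 CPM in members up to 30000 UMIs.

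In cells outside the rule these genes differed between the libraries. The sets were chosen by cycle transcripts, so a contrast between the sets in these genes is no result. In cells with neither 4 mitosis markers nor 4 S phase markers, 103 of the 113 genes were higher in the antagonist library, 85 past 1.5-fold, and the median was 0.93, beside 9.45% of 12804 genes higher and 19.6% lower by that factor (36.8% higher at all). Their median depth was 3379.5 UMIs in 7272 control cells and 1822 in 6694 antagonist cells, and the part of depth in this difference was not tested. In S phase cells, 589 and 307 in number, 92 of 106 measured genes were higher and the median was 0.53, beside 7.1% of 9964 genes higher and 17.9% lower by 1.5-fold or more (39.5% higher at all).

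Members also held transcripts of DNA replication. Of 8 S phase markers, 4 or more were found in 22.4% of control members (20.9 to 23.8) and 16.7% of antagonist members (15.5 to 18.0), and after thinning in 3.09% and 1.93%. Over 50 S phase genes the median log2 ratio was -0.17, with 10 higher and 40 lower, 1 of the lower ones past 1.5-fold. In members up to 30000 UMIs the median was -0.27, with 8 higher and 42 lower, 4 of the lower ones past 1.5-fold. Cdca7, a chromatin factor of S phase, stood apart at 325 and 106 CPM, 3.07-fold lower (2.96 to 3.20). E2f8, a repressive E2F factor, was at 36.9 and 50.9 CPM, which gave a ratio of 1.38 (1.28 to 1.49). Among G1 regulators Cdk6, a partner of D-type cyclins, was at 129.6 CPM in control members and 48.5 CPM in antagonist members, 2.67-fold lower (2.52 to 2.84). Ccnd1, a D-type cyclin, was at 169 and 147 CPM, and Cdkn1a, the inhibitor p21, at 10.1 CPM (8.91 to 11.3) and 23.5 CPM (21.9 to 25.2), 2.34-fold higher (2.04 to 2.69).

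Transcripts of crypt base stem cells were far lower in the dividing cells of the antagonist library. Lgr5 (chromosome 10, 115450311 to 115587780), the receptor for R-spondins that gives the reporter its name, had 1561 UMIs in control members, 55.4 CPM (52.7 to 58.3), and 83 in antagonist members, 2.49 CPM (1.98 to 3.08). This was 22.3-fold lower (17.9 to 28.2). Ascl2, which specifies the crypt stem cell state (chromosome 7, 142966829 to 142969264), was at 72.5 and 6.17 CPM, 11.7-fold lower (10.2 to 13.6). Olfm4, a secreted stem cell marker, was at 2185 and 310.2 CPM, 7.04-fold lower (6.90 to 7.19). Axin2, a feedback inhibitor and direct target of Wnt signalling, was at 138 and 29.0 CPM, 4.77-fold lower (4.44 to 5.12), and Smoc2 at 119.5 and 65.3 CPM, 1.83-fold lower (1.73 to 1.93). In members up to 30000 UMIs Lgr5 was 19.9-fold, Ascl2 12.3-fold, Olfm4 8.41-fold and Axin2 4.79-fold lower. Sums alone cannot tell fewer cells with a transcript from less of it per cell. After thinning, Olfm4 was detected in 91.2% of control members and 41.6% of antagonist members. For Axin2 these shares were 34.4% and 7.89%, for Smoc2 31.0% and 17.3%, for Ascl2 19.8% and 1.67%, and for Lgr5 15.3% and 0.618%. Fewer antagonist members thus had a detected transcript of each of these genes. A lower level per cell also lowers detection, and its part was not tested.

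As lists, all 35 measured genes of the Lgr5 stem cell signature were lower, 33 of them past 1.5-fold; their median log2 ratio was -2.25. Of 20 measured Wnt targets 18 were lower, 13 past 1.5-fold, and the median was -1.48. The 2 higher ones were Bambi (3.30 and 3.95 CPM) and Kremen1 (4.83 and 5.39 CPM). The lists share genes and were assembled with results of these libraries known. The smallest differences in the signature were in Urah (26.4 and 25.7 CPM) and in Ephb2, a receptor that keeps cells in the crypt (40.3 and 28.9 CPM). Of 5853 genes at 20 CPM or more, 4.36% were higher and 7.26% lower by 1.5-fold or more. Among the 2948 genes at 50 CPM or more in a group and 100 UMIs or more, without gene models and the classes named in the methods, the 12 lowest ratios belonged to Lgr5, Rgcc, Ascl2, Olfm4, Gkn3, Lbh, Igfbp4, Soat1, Tifa, Rgmb, Axin2 and Reg3b. Rgcc, a regulator of cell cycle kinases, was at 70.7 and 5.48 CPM, 12.9-fold lower (11.1 to 15.1). Gkn3, a gastrokine, was at 116 and 18.0 CPM, and Igfbp4, which binds insulin-like growth factors, at 73.2 and 14.1 CPM. Reg3b, an antimicrobial lectin, was at 1154 and 294 CPM, and 15.3% of its control UMIs lay in 10 cells.

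**Figure D3:**
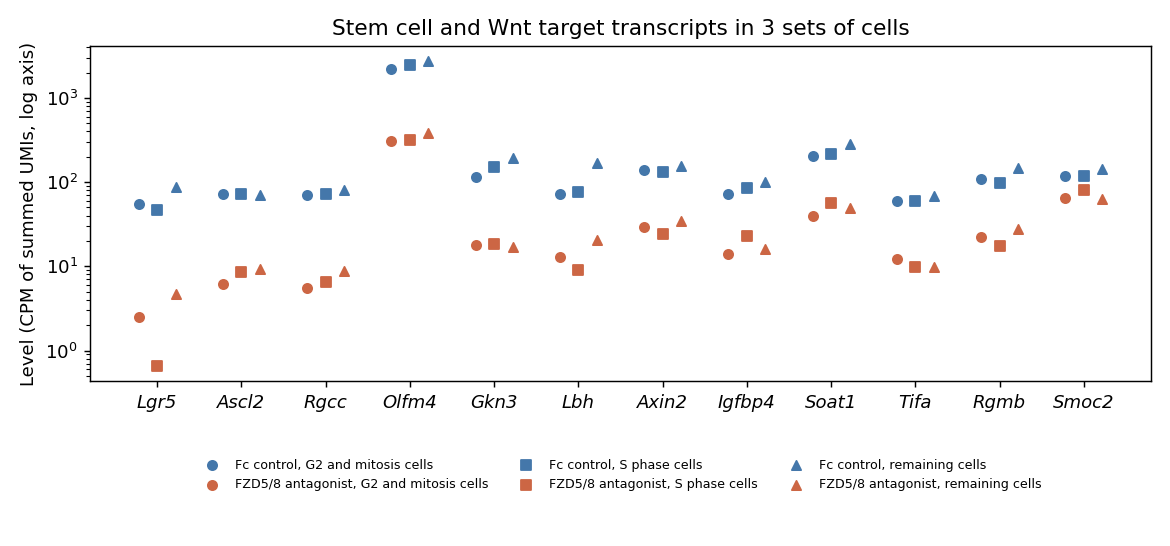
Level (CPM of summed UMIs, log axis) of 12 stem cell and Wnt target transcripts in G2 and mitosis cells (circles), S phase cells (squares) and the remaining cells (triangles), for Fc control (blue) and FZD5/8 antagonist (red). For each transcript all 3 control sets lie above all 3 antagonist sets; Lgr5 in antagonist S phase cells, at 0.651 CPM, is a single UMI.

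The same direction was seen outside G2 and mitosis. The signature's median was -1.87 in S phase cells and -2.16 in the remaining cells, beside -2.25 in members, and the Wnt target medians were -1.45, -1.47 and -1.48. Whether these differ from one another was not tested. Within the control library dividing cells had less of several stem transcripts than the remaining cells. Lgr5 was at 55.4 and 87.0 CPM, Lbh at 73.1 and 167 CPM, and Gkn3 at 116 and 195 CPM, while Ascl2 stood at 72.5 and 71.1 CPM and Rgcc at 70.7 and 80.2 CPM. The signature summed to 5344 and 6939 CPM. After thinning, Olfm4 was detected in 91.2% of control members and 91.6% of other control cells under the Paneth gate. For Axin2 these shares were 34.4% and 34.3%, and for Lgr5 15.3% and 19.8%. The sets were chosen by transcripts and differed in depth. Per cell, the signature made up a median of 0.595% of UMIs in control members (quartiles 0.344% and 0.840%) and 0.117% in antagonist members (0.0702% and 0.171%). The upper quartile of antagonist members lay below the lower quartile of control members.

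Receptors of the Wnt pathway differed in both directions. Fzd5, a target of the antagonist, was at 56.5 CPM (53.7 to 59.3) in control members and 87.7 CPM (84.6 to 90.9) in antagonist members, 1.55-fold higher (1.46 to 1.65). Fzd8, the other target, was rare, with 30 and 28 UMIs, a ratio of 0.787, and the interval (0.453 to 1.36) took in equality. Fzd7 was at 13.4 and 3.95 CPM, Fzd2 at 6.57 and 1.59 CPM and Fzd6 at 7.03 and 3.29 CPM. Ryk, a co-receptor, was at 64.0 and 43.2 CPM, 1.48-fold lower (1.38 to 1.59), and the co-receptor Lrp6 at 85.4 and 76.3 CPM. Of 13 measured receptors and co-receptors 2 were higher and 11 lower, 4 of them past 1.5-fold; their median log2 ratio was -0.38.

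Dividing cells of the antagonist library held more transcripts of absorptive cells. Of 39 measured genes 37 were higher, 32 past 1.5-fold; their median log2 ratio was 1.44, or 1.51 in members up to 30000 UMIs. Rbp2, a retinol-binding protein of enterocytes, was at 310.2 CPM in control members and 1124 CPM in antagonist members, with 64.2% of the control UMIs in 10 cells. Arg2, a mitochondrial arginase, was at 49.4 and 220.2 CPM, 4.46-fold higher (4.21 to 4.72), Gsdmc4, a gasdermin, at 6.29 and 41.6 CPM, 6.62-fold higher (5.66 to 7.79), and Car4, a carbonic anhydrase, at 26.4 and 98.6 CPM. Sis, the brush border sucrase-isomaltase, was at 24.1 and 83.2 CPM. The 2 lower genes were the peptidase Dpp4 (103 and 76.2 CPM) and the disaccharidase Mgam (132 and 120.2 CPM). Per cell the list made up a median of 0.383% of UMIs in control members (quartiles 0.270% and 0.585%) and 1.21% in antagonist members (0.924% and 1.53%), so that the middle ranges did not overlap. The list's median was 1.17 in S phase cells and 0.96 in the remaining cells. At least 3 enterocyte markers were found in 100% of antagonist members over 30000 UMIs. The share was 99.5% in antagonist and 98.1% in control members up to 30000 UMIs. The list's median held without the members over 30000 UMIs.

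**Figure D4:**
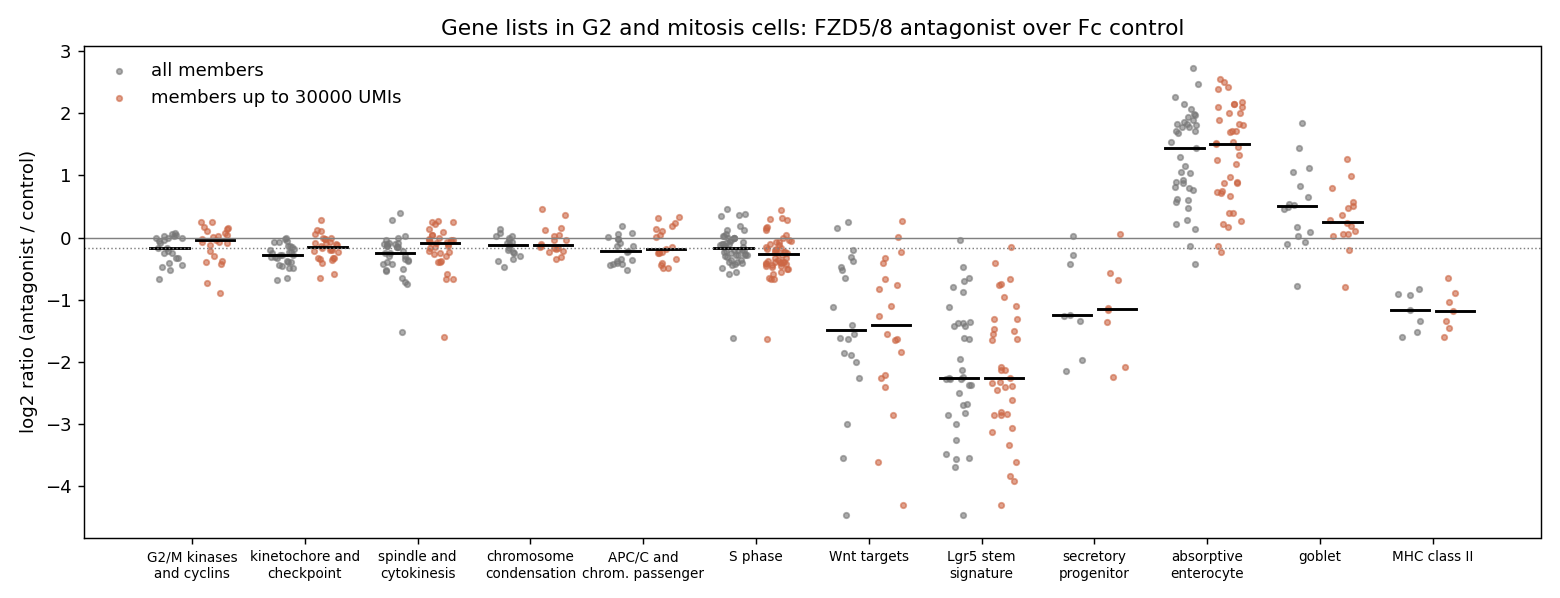
Log2 ratio of antagonist over control for each measured gene of 12 lists, in all G2 and mitosis cells (grey) and in those up to 30000 UMIs (red). Black bars are list medians, the solid line marks equality and the dotted line the median of all genes, -0.17. Lists of division, which also hold markers of the rule, sit near that line. Stem cell and Wnt target lists sit below it and the absorptive list above it.

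Secretory transcripts behaved differently from list to list. Of 8 measured genes of secretory progenitors 7 were lower, 5 past 1.5-fold; their median log2 ratio was -1.25. Sox4, a transcription factor of early secretory cells, was at 111 and 28.4 CPM, 3.92-fold lower (3.64 to 4.22), Dll1, a Notch ligand, at 25.4 and 10.6 CPM, and Neurog3, which starts the enteroendocrine lineage, at 4.01 and 0.898 CPM. Atoh1, the factor of secretory fate, stood at 10.4 and 8.56 CPM. Of 16 goblet genes 13 were higher, 6 past 1.5-fold, and the median was 0.51. Only 3 were higher past 1.5-fold in members up to 30000 UMIs, and the median was 0.25. Without members with 1% or more of UMIs from goblet and Paneth genes, an alternative chosen after seeing the data, the goblet median was -0.17. That filter removes cells by these same genes, so this value is no separate result. Zg16, a goblet lectin, was at 342 and 1229 CPM, but 90.8% of its control UMIs lay in 10 cells. Muc2, the gel-forming mucin, was at 72.5 and 149.7 CPM.

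Paneth cell transcripts were higher in the antagonist members in a way that rested on a subset of cells. Of 14 measured genes 14 were higher, 12 of them past 1.5-fold, and the median was 1.54. In members up to 30000 UMIs 13 were higher, 9 of them past 1.5-fold, and the median was 0.99. Lyz1, lysozyme, was at 102 and 475 CPM, 4.66-fold higher (4.48 to 4.85), and at 105 and 258 CPM in members up to 30000 UMIs. Defa24, a defensin, was at 3003 and 11179 CPM and at 3083 and 8570 CPM in members up to 30000 UMIs. The gate that removes Paneth cells acts on Lyz1 and the Defa-prefixed genes, so the levels of these genes in members are in part set by the rule. It removed more cells in the antagonist library. The 12 highest ratios among genes considered by size were those of Xist, Lyz1, Defa23, Arg2, Defa3, Clps, Defa26, Gsta1, Defa17, AY761184, Car4 and Defa24, and the defensin genes are close copies among which reads may be split. The median Paneth share per cell was lower in antagonist members, 0.247% of UMIs (quartiles 0.0989% and 1.74%), than in control members, 0.422% (0.229% and 0.892%), although the sums were higher. Members with 1% or more of UMIs from goblet and Paneth genes numbered 849 in the control library, with 17.7% of the members' UMIs, and 1261 in the antagonist library, with 64.5%. Without them the Paneth median was -1.41. That filter removes cells by these same genes, and more of the UMIs in the antagonist library, so this value is no separate result. In members up to 30000 UMIs the 12 highest ratios were those of Xist, Nts, Rbp2, Gsta1, St3gal4, Car4, Arg2, Sis, Cox7a1, Rbp7, Smlr1 and Chp2.

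Among the remaining lists, MHC class II stood lowest. All 7 measured genes of MHC class II presentation were lower by 1.5-fold or more, at a median of -1.16. The largest difference was in H2-Aa (63.0 and 20.7 CPM, 3.05-fold lower, 2.79 to 3.33). Its invariant chain Cd74 was at 598 and 267 CPM. Of 16 genes of the p53 response 12 were lower, with a median of -0.35, although Cdkn1a was higher. Of 19 sterol synthesis genes 15 were higher, with a median of 0.14, 2 of them by 1.5-fold or more, Insig1, a brake on sterol synthesis (28.7 and 67.3 CPM), and Msmo1 (21.0 and 33.4 CPM). The immediate early gene Jun, which tissue dissociation can induce, was at 73.1 and 33.9 CPM, and its list of 14 measured genes had a median of -0.10, with 4 lower past 1.5-fold. That median was -0.50 in members up to 30000 UMIs, with 7 lower past 1.5-fold.

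Lgr5 transcripts were detected in many control members and rarely in antagonist members. An Lgr5 UMI was found in 1020 of 3167 control members (32.2%, 30.6 to 33.9) and in 78 of 3535 antagonist members (2.21%, 1.75 to 2.75). After thinning the shares were 432 of 2820 (15.3%, 14.0 to 16.7) and 17 of 2751 (0.618%, 0.360 to 0.988). Thinned cells outside G2 and mitosis gave 19.8% and 1.03%. Thinned Paneth-gated cells gave 16 of 125 control cells (12.8%), with an exact interval that took in the members' 15.3%, and 1 of 240 antagonist cells. Enterocyte-gated cells, which should lack Lgr5, gave 3.36% (1.10 to 7.66) of 149 thinned control cells and 0 of 148 antagonist cells, which allows a share of up to 2.03% (3 counts of 148), so the antagonist share lay within what that background allows. Detected control members had 1 UMI in most cases, since 335 had 2 or more. A cell without an Lgr5 UMI can still express the gene.

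Within the control library Lgr5-detected members carried more of the stem cell programme, with division genes at about the same level. Their summed goblet UMIs were lower, although goblet medians per cell were close. Detected members numbered 1020, with a median of 8243.5 UMIs, and undetected members 2147, with 7267. Over 11875 genes 5.8% were higher in detected members by 1.5-fold or more, 3.69% were lower by that factor, 60.2% were higher at all, and the median log2 ratio was 0.06. Of 34 measured genes of the stem cell signature other than Lgr5, 33 were higher, 20 past 1.5-fold, and the median was 0.63. Of 19 Wnt targets 17 were higher, with a median of 0.58. Olfm4 was at 1763 CPM in undetected and 2975 CPM in detected members, a ratio of 1.69 (1.66 to 1.71), Ascl2 at 61.3 and 93.3 CPM, Axin2 at 118 and 176 CPM, and Smoc2 at 103 and 151 CPM. Rnf43, a ubiquitin ligase that removes Frizzled receptors, was at 75.3 and 121 CPM, and Nav1 at 17.7 and 35.8 CPM, which gave a ratio of 2.02 (1.73 to 2.36). For these genes the ratios were smaller than those between the libraries.

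The division genes showed little difference, which is in part set by the rule, since all members were chosen by division transcripts. Of the 113 genes of G2 and mitosis 65 were higher in detected members, 1 of them past 1.5-fold, and the median was 0.04. Among markers of the rule, Cdk1 was at 216 CPM in undetected and 189 CPM in detected members, and Cenpf at 315 and 359.6 CPM. The exception was Psrc1, at 14.7 and 22.9 CPM, which gave a ratio of 1.56 (1.30 to 1.87). Wee1 was at 44.4 and 59.1 CPM, which gave a ratio of 1.33 (1.19 to 1.48). Both were lower in antagonist than in control members. Over 50 S phase genes the median was -0.12, with Rrm2, a subunit of ribonucleotide reductase, at 71.4 and 49.9 CPM and Cdca7 at 286 and 397 CPM. Cdk6 was at 109 and 168 CPM, which gave a ratio of 1.54 (1.44 to 1.65). Per cell, genes of G2 and mitosis made up a median of 2.06% of UMIs in detected and 2.04% in undetected members, and the stem cell signature 0.765% and 0.490%.

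In summed UMIs of the control library, goblet genes were lower in Lgr5-detected members. All 16 were lower, 14 past 1.5-fold, and the median was -1.71. The 8 lowest ratios among 2963 genes considered by size were those of Zg16, Ccl6, Muc2, Fcgbp, Agr2, Spink4, Tff3 and Mmp7. Muc2 was at 98.3 CPM in undetected and 24.1 CPM in detected members, 4.09-fold lower (3.57 to 4.70), Agr2, a chaperone of mucin folding, at 1022 and 306 CPM, and Spink4 at 1912 and 595 CPM. A Muc2 UMI was found in only 189 of 3167 control members (5.97%). Zg16 was at 492 and 62.6 CPM with the concentration in few cells given above. The medians per cell were close, with goblet genes at 0.0642% of UMIs in undetected and 0.0587% in detected members, and the upper quartiles were 0.110% and 0.0854%. Absorptive genes had a median of -0.37, with 29 of 38 lower, led by Rbp7, a retinol-binding protein (44.4 and 11.8 CPM). Of 8 secretory progenitor genes 7 were lower, 4 past 1.5-fold, and the median was -0.59. The exception was Sox4, at 97.1 and 138 CPM. The highest ratios after Lgr5, which made the split, were those of Chgb, Lbh, Agr3, Rgmb, Gkn3, Rgcc and Igfbp4, and 97.4% of the Chgb UMIs lay in 10 cells. Of these, Lbh was at 55.9 and 105 CPM and Rgcc at 55.4 and 99.3 CPM. All 12 measured tuft genes were higher, with a median of 1.11 that was -0.05 after thinning.

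**Figure D5:**
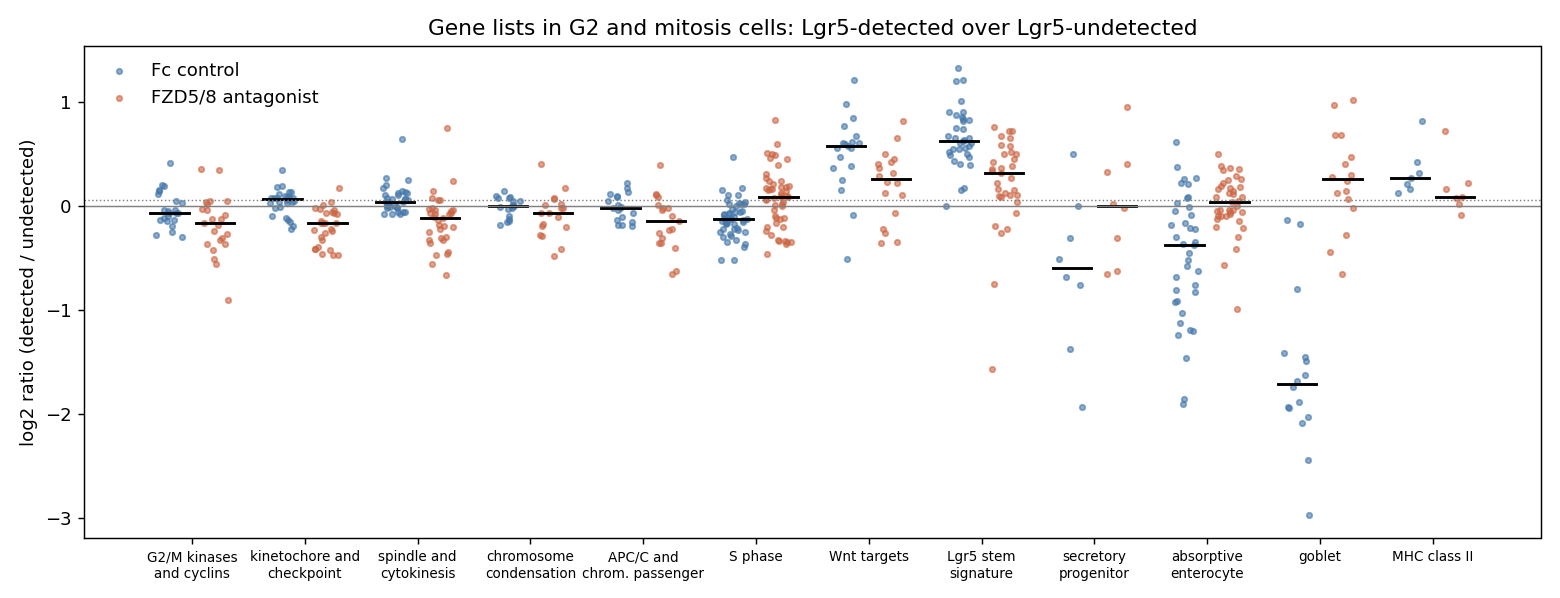
Log2 ratio of Lgr5-detected over Lgr5-undetected G2 and mitosis cells for each measured gene of 12 lists, in the Fc control (blue) and FZD5/8 antagonist (red) libraries. Black bars are list medians and the dotted line is the median of all genes in the control library, 0.06; the medians of stem cell genes, 0.63 and 0.32, and of Wnt targets, 0.58 and 0.26, lie above it in both libraries, while goblet medians were -1.71 for control and 0.26 for antagonist cells.

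In the antagonist library only 78 members had an Lgr5 UMI, and these were deep, with a median of 10212.5 UMIs against 4926. Over 11801 genes 8.67% were higher by 1.5-fold or more, 5.62% were lower by that factor and 57.4% were higher at all. Of 33 genes of the stem cell signature 27 were higher, 6 past 1.5-fold, and the median was 0.32, while the Wnt target median was 0.26. The signature made up a median of 0.176% of UMIs in these 78 cells and 0.116% in undetected ones, both below the 0.490% of undetected control members. The 113 division genes had a median of -0.14, and the absorptive genes one of 0.05. Of 16 goblet genes 12 were higher, 4 past 1.5-fold, with a median of 0.26, the opposite direction to the control library. Since 25 of the 78 cells were over 30000 UMIs, depth moved with this split, and its part was not tested.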

How the data were processed

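For each of 2 libraries the authors deposited raw UMI counts, as a matrix of genes by barcodes. Cell Ranger and the build GRCm38 (mm10) are named in the submitters' processing notes, and version 3.1.0 of the software stands in the deposited headers. The libraries were prepared with droplet 3′ chemistry, per the labels. Members and gene lists were chosen with earlier results of these data known.

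Counts were summed over the cells of a set and scaled to CPM, with Python 3.11.15, numpy 2.4.6, scipy 1.17.1 and pandas 2.3.3. Intervals (95%) are exact: Poisson for levels, binomial given the sum for ratios, and Clopper-Pearson for shares. Log2 ratios had 0.5 added to each sum, and genes with 20 or more UMIs were counted. A difference was called at 1.5-fold, and no test was made. Ratios and intervals were tested on simulated counts. The S phase cells had under 4 of the 8 mitosis markers and 4 or more of Mcm3, Mcm5, Mcm6, Gins2, Uhrf1, Cdc6, Dtl and Clspn. Named genes had 50 CPM or more in a group and 100 UMIs, without gene models, mitochondrial, ribosomal protein, haemoglobin and receptor genes of lymphocytes. The 12 highest and 12 lowest ratios were taken between libraries, 8 and 8 between Lgr5 groups, and 2 and 2 of each list at 20 CPM or more, beside a fixed set. Coordinates came from GENCODE (30934 of 31053 identifiers) and promoters from RefSeq (GRCm38.p6). No doublet caller was run.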

Additional observations from a re-analysis of the deposited data

Results flagged for a closer look

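Paneth cell transcripts differed between the libraries in opposite directions in G2 and mitosis cells and in other cells, and the difference was not tested. The Paneth gate acts on Lyz1 and the Defa-prefixed genes in all of these cells, so the levels of these genes are in part set by the rule. The gate removed 30 control and 129 antagonist cells that otherwise met the rule for members. Lyz1 was 4.66-fold higher in the antagonist library among members, at 102 and 475 CPM, but lower among S phase cells (97.6 and 36.4 CPM) and among the remaining cells (195 and 108 CPM). The defensins Defa23, Defa3, Defa26, Defa17, AY761184 and Defa24 were higher in antagonist members by ratios of 4.53, 4.45, 4.39, 4.27, 4.13 and 3.72, and Clps, pancreatic colipase, by 4.39. Each of these 7 was lower in the antagonist library in both other sets. In members up to 30000 UMIs the ratios were 2.46 for Lyz1, 2.78 for Defa24 and 2.35 for Clps. Over the Paneth list the median log2 ratio was 1.54 in members, -1.31 in S phase cells and -0.85 in the remaining cells.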

How the results depend on the processing

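Limits: 1 library per group, so differences between mice are unmeasured, and depth differed between the libraries. The share of G2 and mitosis cells was higher in the antagonist library under all 12 alternatives, by 6.10 percentage points with 3 or more markers, 2.53 with 5 or more, 0.969 with 6 or more, 14.4 after thinning, 11.9 with 1000 genes or more, 11.6 with 2000 UMIs or more, 2.56 without cells over 30000 UMIs and 13.2 with those left out and the rest thinned. Genes past 1.5-fold between libraries numbered 2486 higher and 4177 lower (6663) with no minimum of UMIs, and 1387 lower with 100 or more. For the Lgr5 split they numbered 1064 higher after thinning, and 244 higher and 188 lower (432) with 100 or more UMIs. The stem cell signature, Wnt target, MHC class II and absorptive medians kept their direction in 18 of 18 alternatives between libraries.

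Log2 ratios that changed sign: Cdk1 was at -0.0895 with 5 or more markers and -0.26 with 6 or more, Birc5 at -0.0731 with 6 or more, and Mki67 at 0.0398 with libraries scaled by the median gene ratio. The immune marker median was -1.21 after thinning, -0.55 with 100 or more UMIs and -0.58 in members of 2000 to 15000 UMIs. Without members with 1% or more of goblet and Paneth UMIs, Mki67 was at 0.0586, Top2a at 0.17, Lyz1 at -1.65, Defa23 at -1.30, Defa3 at -0.71, Clps at -0.60, Defa26 at -1.74, Defa17 at -0.86, AY761184 at -0.84 and Defa24 at -0.98. The medians were then 0.0668 for kinetochore, -0.17 for goblet, -1.41 for Paneth, -0.65 for tuft and -0.39 for immune genes. For goblet and Paneth genes this filter selects cells on the values it is then read on, so their changes of sign are no separate result. In the Lgr5 split the enteroendocrine median was -1.40 after thinning, -0.47 for 2 or more Lgr5 UMIs and -0.30 with 100 or more UMIs, and the tuft median was -0.0545 after thinning. The cause was not tested. No paired analysis was possible because each group has 1 library.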

Other observations

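Nts, the gut peptide neurotensin, had 0 UMIs in control members and 1180 in antagonist members, and 100% of these UMIs lay in 10 cells.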
